A study of Mus musculus with 130 samples.

Results

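Liver RNA of recombinant inbred BXD mice contained 127 genes whose level fell into 2 separate sets of strains. They were chosen by a rule on the deposited TPM values (a level corrected for transcript length and library size): on the log2(TPM + 1) scale, neighbouring strains had to be at least 1 apart, with at least 14 strains on each side of that gap. The rule used 55 BXD strains with 1 mouse each. Of 35711 genes in the panel table, 15846 reached 1 TPM in at least 1 of these strains and 131 of those met the rule, 0.827% of the 15846. Ctse, Hamp2, Tpm3-rs7 and C1s2 met it and were left out by name, which left 127 members. Because the BXD levels chose the members, these levels are given below as a description, with no test.

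The study sequenced liver RNA of 130 mice, all labelled male, to ask how strains and diets differ under iron load. The panel mice ate chow for 4 weeks and then a diet with 2% carbonyl iron, 20000 ppm, for 6 weeks. They comprised 56 BXD mice, of which 1 carried the label BXD24/TyJ-Cep290<rd16>/J, a substrain with a named allele of Cep290, 20 AXB/BXA mice, 4 BXH mice, 3 CXB mice and 32 mice of other inbred strains. The parents used here, C57BL/6J and DBA/2J, ate the same iron diet and had 1 mouse each. In the diet study, 15 C57BL/6J mice received chow, 50 ppm, 500 ppm or 2% iron, or the 2% diet with cellulose as fibre, with 3 mice per diet. The labels give no ages.

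BXD strains descend from a cross of C57BL/6J with DBA/2J, and inbreeding has fixed the allele of one parent or the other at nearly every locus. A gene whose level is set mainly by a single variant can therefore take 2 levels across such strains. Processed pseudogenes are copies of messenger RNAs that were written back into the genome, often on another chromosome than the gene they came from. Short reads from near-identical copies can be compatible with more than 1 annotated transcript, so the value of each copy is uncertain.

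Of the 127 members, 99 were annotated as pseudogenes and 28 as protein coding. Pseudogenes made up 78.0% of members and 14.3% of the 15846 genes with at least 1 TPM. Most of them, 87, were processed pseudogenes. The gap had a median of 1.62 and ran from 1.01 to 5.80. The high side held 14 to 41 strains, with a median of 26. For 22 members no BXD library reached 10 estimated counts, and all their low-side strains were listed at 0. The other 105 members had at least 10 counts in at least 1 strain, and the accounts of position and relatives below rest on these 105.

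For many members the annotated sequence was nearly that of an expressed gene elsewhere. The sequences below are from GENCODE M21 transcripts of GRCm38, which represent C57BL/6J, and the coding strand is shown 5′ to 3′. They show 4 members with wide gaps, and a copy of Gapdh that split the other way, beside the gene each resembles most. Capitals mark the base that differs between the pair. DBA/2J sequence was not used here.

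Gm13394, a processed pseudogene at chr2:28933610-28934609 on the minus strand, aligned over 1000 bases with Gapdh, which encodes a glycolytic enzyme on chromosome 6, and 1 base differed. The stretch shown is chr2:28934244-28934284.
Gm13394: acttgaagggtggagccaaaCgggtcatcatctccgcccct
Gapdh: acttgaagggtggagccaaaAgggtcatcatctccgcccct

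Gm12070, a processed pseudogene at chr11:26786633-26787634 on the plus strand, aligned with Gapdh over 1002 bases, and 1 base differed as well, at another position. The stretch shown is chr11:26786973-26787013 and overlaps the coding stretch above.
Gm12070: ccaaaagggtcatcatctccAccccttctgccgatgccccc
Gapdh: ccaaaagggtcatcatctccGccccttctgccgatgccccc

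Gm10260, annotated as protein coding at chr13:97760072-97760632 on the minus strand, differed from Rps18, a ribosomal protein gene on chromosome 17, at 5 of 545 aligned bases. The first pair lies at chr13:97760383-97760423 and the second at chr13:97760232-97760272.
Gm10260, first: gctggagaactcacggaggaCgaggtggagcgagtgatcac
Rps18, first: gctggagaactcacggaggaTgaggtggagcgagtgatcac
Gm10260, second: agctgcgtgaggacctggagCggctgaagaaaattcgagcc
Rps18, second: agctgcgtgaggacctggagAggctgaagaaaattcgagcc

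Rpl34-ps1, a processed pseudogene at chr6:71124610-71124963 on the plus strand, differed from Rpl34, a ribosomal protein gene on chromosome 3, at 2 of 354 bases. The pairs lie at chr6:71124721-71124761 and chr6:71124907-71124947.
Rpl34-ps1, first: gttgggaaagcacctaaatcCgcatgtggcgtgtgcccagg
Rpl34, first: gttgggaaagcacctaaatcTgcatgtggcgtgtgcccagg
Rpl34-ps1, second: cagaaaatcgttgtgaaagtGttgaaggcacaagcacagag
Rpl34, second: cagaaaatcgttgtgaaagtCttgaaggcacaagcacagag

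Gm15459, a processed pseudogene at chr5:5781615-5783555 on the minus strand, differed from Hspa8, which encodes a constitutive heat shock chaperone on chromosome 9, at 5 of 1941 bases. The stretch shown is chr5:5783422-5783462.
Gm15459: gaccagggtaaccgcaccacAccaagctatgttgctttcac
Hspa8: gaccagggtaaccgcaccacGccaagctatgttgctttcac

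Library totals ran from 9.41 M to 20.6 M (mega) estimated counts among the 55 BXD strains, and were 11.4 M for the panel C57BL/6J mouse and 11 M for DBA/2J. Hepatocyte markers summed to between 40569 and 84925 TPM in the BXD strains, while 8 lymphocyte markers summed to between 1.66 and 9.04 TPM. The sum of 6 erythroid genes ran from 3.85 to 4808 TPM, and its part in the members' levels was not tested. The mouse labelled BXD65/RwwJ went against its male label and was not used by the rule: 4 Y-linked genes summed to 1.08 TPM in it, against at least 47.8 TPM in each of the 55 strains. Its values are given for named members below.

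One pair of libraries stood apart. The panel library labelled BXD19/TyJ and the diet-study library labelled 500 ppm replicate 2, from a C57BL/6J mouse, had estimated counts within 2% of each other for 91.7% of 8151 genes with a median count between 100 and 5000. In the next of the 8385 pairs of libraries that share was 11.7%. Their totals were 20.6 M and 20.4 M counts, against 9.41 M to 14.7 M in the other BXD strains and 10.4 M to 14.2 M in the other diet-study mice. Of 75 members that were high in DBA/2J and low in C57BL/6J and were present in both tables, the library labelled 500 ppm replicate 2 lay on the high side for 32, and each of the other 14 diet-study mice for 0 to 3. On the 31 of those members where the library labelled BXD19/TyJ was high, it reached a median of 0.480 of the high-side median. In the other strains this ratio ran from 0.835 to 1.18. Whether one label, neither, or a mixture of both sources describes these counts was not tested. The panel library is called BXD19 below, and each value given for BXD19 carries this doubt. Without BXD19, 135 genes met the gap rule, 125 of them members, and main counts without either library are given where they differ. Mup19 and Gm8430 each had BXD19 on a side of just 14 strains, the minimum of the rule. Without BXD19 those sides are too small for the rule.

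**Figure D1:**
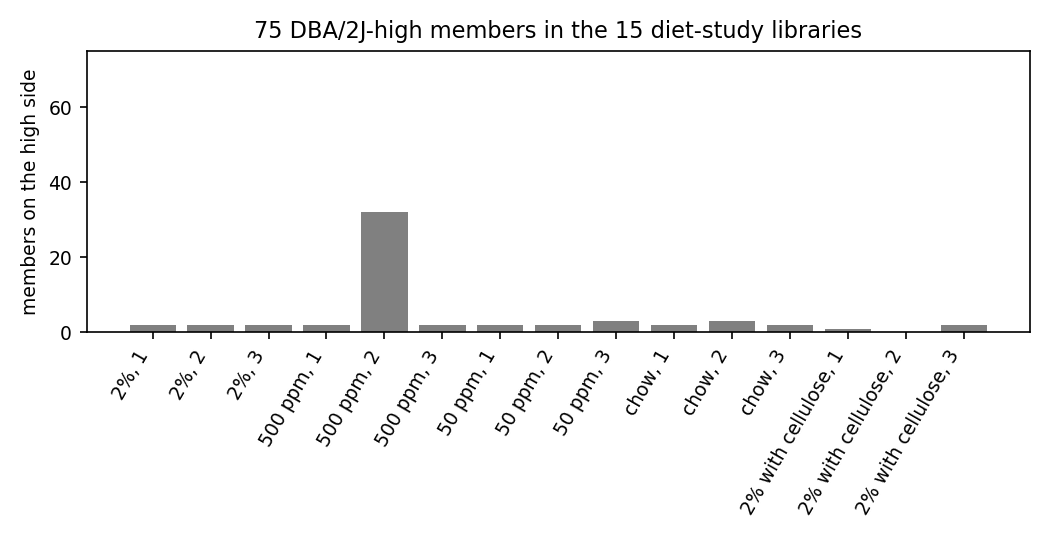
Number of 75 DBA/2J-high members that lay on the high side of the BXD gap in each of the 15 diet-study libraries, all labelled C57BL/6J, named by diet and replicate. The library labelled 500 ppm replicate 2 stands at 32 and the others lie between 0 and 3.

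The parents, which the rule did not use, mostly lay on opposite sides. DBA/2J was on the high side and C57BL/6J on the low side for 80 members. The reverse held for 15. Both parents lay on the low side for 22 members and both on the high side for 10. On the log2(TPM + 1) scale DBA/2J was above C57BL/6J by more than 1 for 83 of 127 members, against 4.03% of the 15846 genes. C57BL/6J was above DBA/2J by more than 1 for 17 members, against 4.85% of those genes. The median difference, DBA/2J minus C57BL/6J, was 2.58 for members and -0.03 for all 15846 genes. With 1 mouse per parent, the panel holds no replicate check on any single member. The C57BL/6J mice of the diet study, described below, differed in side from the panel C57BL/6J mouse for some members. Among the 22 members under 10 counts, 13 had both parents on the low side, 3 had both on the high side and 6 had them on opposite sides.

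**Figure D2:**
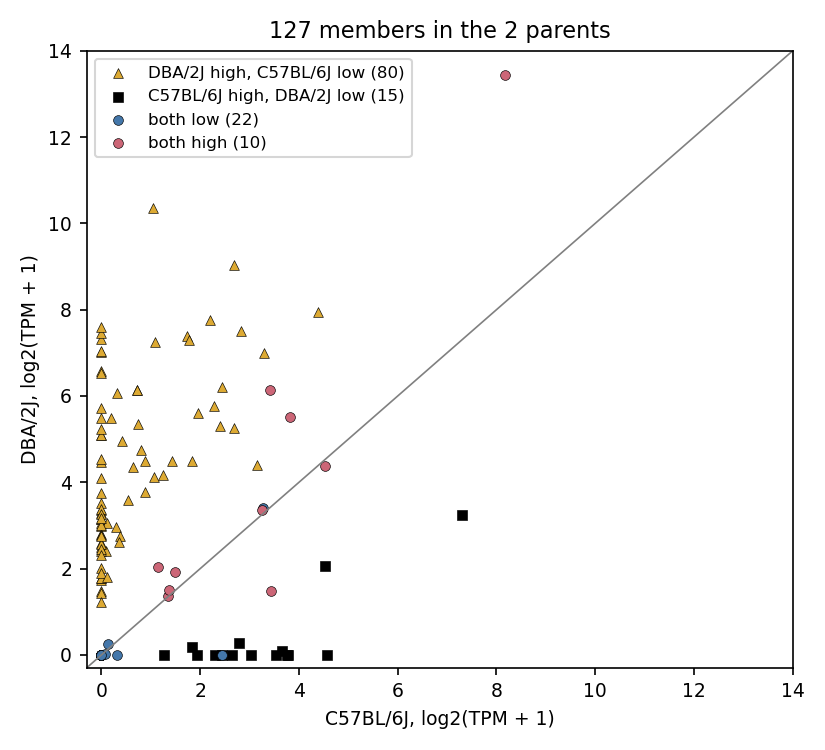
Level of each of the 127 members in the single C57BL/6J mouse (x axis) and the single DBA/2J mouse (y axis), both as log2(TPM + 1), with symbols by the sides on which the parents lay. The line marks equal levels, and 80 members lie high in DBA/2J and low in C57BL/6J.

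Among the 89 members with at least 10 counts and parents on opposite sides, each strain had its own mixture of the parental levels. The share on the DBA/2J side was 48.3% in the median strain, and ran from 30.3% in BXD100/RwwJ to 82.0% in BXD32/TyJ. Per member, 14 to 41 strains lay on the DBA/2J side, with a median of 27. The related strains BXD48/RwwJ and BXD48a/RwwJ lay on the same side for 94 of 105 members. Both mice of 129X1/SvJ, the one panel strain with 2 mice, lay on the same side for 93 of 105, and differed by a median of 0.26 on the log2 scale. Their difference was as large as the member's BXD gap for 12 members, which included Sult3a1, Sult3a2, Mup7, Mup10, Mup14 and Mup19.

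The protein-coding members included several gene families. On chromosome 17, in the major histocompatibility complex, H2-Q2, Gm11127 and Gm8909 were joined by the pseudogenes H2-K2 and H2-Ea-ps. Drug and steroid metabolism was represented by Ugt1a9 on chromosome 1, Sult3a1 and Sult3a2 on chromosome 10 and Cyp2c39 on chromosome 19, 4 of the 220 genes with symbols of such enzyme families. Genes of secreted plasma or urinary proteins were Serpina3c on chromosome 12, Mup7, Mup10, Mup14 and Mup19 on chromosome 4, and Mug2 and C1rb on chromosome 6. The rest were Ifi202b on chromosome 1, Pttg1, Hoxb1 and Hmga1b on chromosome 11, Hist1h2aa, Gm11361 and Gm10260 on chromosome 13, Tff3 and Gm10184 on chromosome 17, Eno1b on chromosome 18, Gm20538 on chromosome 19, Gm14403 on chromosome 2, Corin on chromosome 5 and Trim12a on chromosome 7. Rps3a2 on chromosome 14 is a pseudogene with a gene-like symbol. None of the 30 iron genes with at least 1 TPM was a member, Hamp2 having been left out by name.

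Gm10260 had the widest gap of all members. Its TPM on the low side was 0 at the lowest, 0.384 at the median and 1.91 at the highest over 25 strains, and on the high side 161, 189 and 297 over 30 strains. C57BL/6J was listed at 0, DBA/2J at 129 and BXD65 at 0. Both sides were narrow, and DBA/2J lay below the lowest high-side strain. Gm11361 at chr13:28257528-28258134, also a copy of Rps18, had 10.5, 28.9 and 47.8 TPM on the low side and 156.07, 220 and 349 on the high side, with the same strains on each side as Gm10260. It stood at 6.08 TPM in C57BL/6J, 180 in DBA/2J and 20.4 in BXD65.

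H2-Q2, a class I histocompatibility gene at chr17:35342242-35346762, had 0.224, 0.960 and 1.82 TPM (lowest, median, highest) in 25 strains and 39.4, 50.9 and 73.7 TPM in 30. C57BL/6J had 0.677, DBA/2J 39.7 and BXD65 1.43 TPM. Gm8909 at chr17:36164443-36168537 had 0, 0.698 and 1.63 TPM on the low side and 19.9, 30.6 and 47.4 TPM on the high side. It had 0.752 TPM in C57BL/6J, 25.7 in DBA/2J and 0.503 in BXD65. Both parents lay within or close to the range of the side they fell on.

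Ifi202b at chr1:173962568-173982744, an interferon-inducible DNA-binding protein gene, was at or near 0 on the low side, with a highest value of 0.0619 TPM in 30 strains. Its high side held 25 strains with 5.96, 9.47 and 19.04 TPM. C57BL/6J and BXD65 were listed at 0, and DBA/2J had 7.34 TPM. C1rb at chr6:124570294-124581171, a copy of the gene for the complement protease C1r, had 0.0967, 0.324 and 1.04 TPM in 28 strains and 7.68, 16.6 and 20.96 TPM in 27. C57BL/6J had 0.558, DBA/2J 19.6 and BXD65 0.651 TPM.

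Cyp2c39 at chr19:39510862-39568529, a cytochrome P450 of the Cyp2c cluster, had 0.868, 5.97 and 13.6 TPM in 30 strains and 71.3, 170 and 296 TPM in 25. The lowest of these high values was BXD19. C57BL/6J had 3.84, DBA/2J 53.4 and BXD65 5.14 TPM, so DBA/2J was above the low side but under every high-side strain. Ugt1a9 at chr1:88070800-88218997, a glucuronosyltransferase that shares its last exons with other Ugt1a genes, had 8.04, 15.9 and 40.5 TPM in 31 strains and 88.8, 251.03 and 374 TPM in 24. It had 19.9 TPM in C57BL/6J, 246 in DBA/2J and 185 in BXD65.

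Serpina3c at chr12:104146382-104153870, a serine protease inhibitor of plasma, had 1.38, 2.83 and 22.7 TPM in 29 strains and 86.4, 228 and 441 TPM in 26. C57BL/6J had 3.59, DBA/2J 217.05 and BXD65 2.07 TPM. Its neighbour Serpina3l-ps lay on the same side in 54 of 55 strains.

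Eno1b on chromosome 18, a copy of the glycolytic enzyme gene Eno1, had 0, 1.32 and 8.67 TPM in 29 strains and 203, 284 and 438 TPM in 26. C57BL/6J had 2.34, DBA/2J 167 and BXD65 5.22 TPM. Hmga1b at chr11:120762794-120764419, a copy of the chromatin protein gene Hmga1, had at most 0.389 TPM in 26 strains and 5.40, 11.9 and 19.1 TPM in 29. C57BL/6J had 0.455, DBA/2J 11.04 and BXD65 0.425 TPM.

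The remaining pair among the 12 widest rested on few reads. Hist1h2aa at chr13:23934462-23934851, a histone H2A gene, was listed at 0 in 23 strains and had 2.99, 7.59 and 13.8 TPM in 32, from at most 34.1 counts. C57BL/6J was listed at 0, DBA/2J had 4.95 and BXD65 1.69 TPM. Gm20538 at chr19:44543722-44552831 was listed at 0 in 24 strains and had 2.28, 4.83 and 18.1 TPM in 31, from at most 6.23 counts. It had 2.80 TPM in C57BL/6J, was listed at 0 in DBA/2J and had 5.38 TPM in BXD65.

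**Figure D3:**
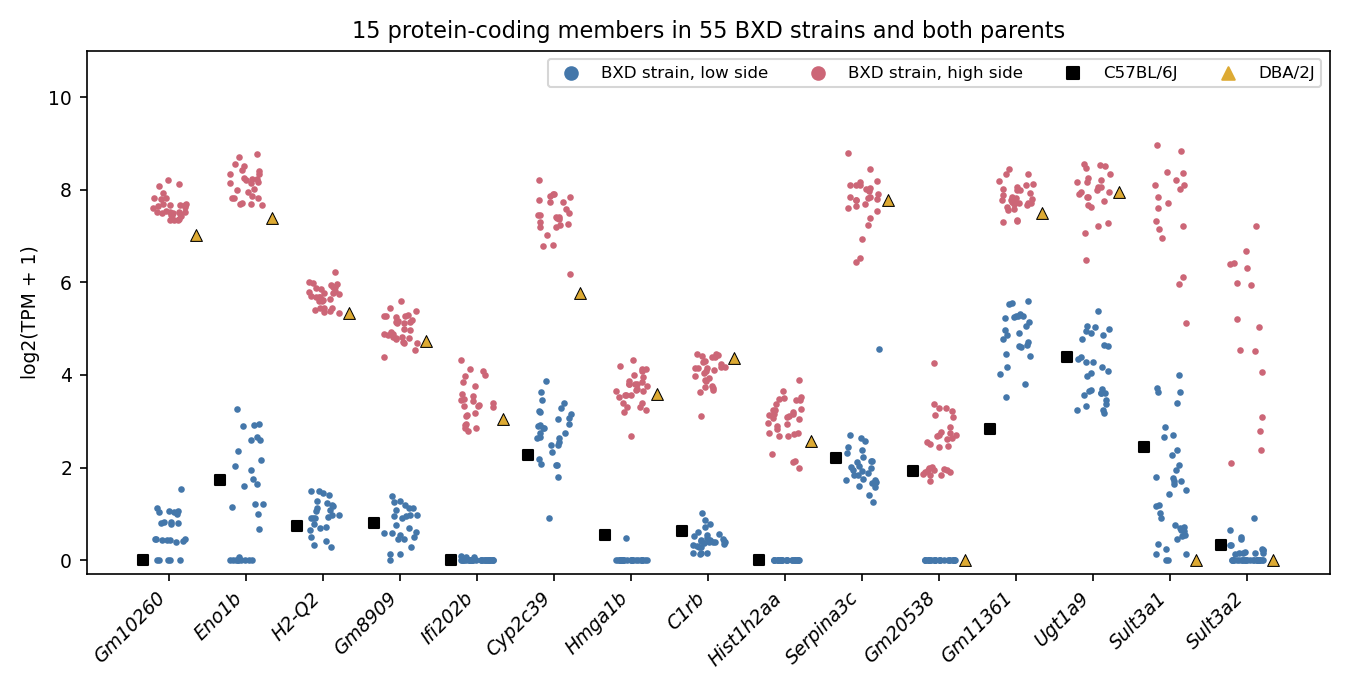
Level as log2(TPM + 1) of the 12 protein-coding members with the widest gaps and of Ugt1a9, Sult3a1 and Sult3a2. Each point is 1 of 55 BXD strains, with C57BL/6J as a square and DBA/2J as a triangle, and the parents fall on opposite sides except for Sult3a1 and Sult3a2, where both are low.

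Among the 105 members with at least 10 counts, 9 were low in both parents and 7 were high in both. Sult3a1 at chr10:33857721-33879532, a sulfotransferase known for female-predominant expression in mouse liver, had 0, 1.70 and 14.99 TPM in 37 strains and 33.7, 219 and 498 TPM in 18. C57BL/6J had 4.44 TPM, DBA/2J was listed at 0 and BXD65 had 381 TPM. Sult3a2 at chr10:33766424-33786704, its neighbour, had at most 0.893 TPM in 39 strains and 3.30, 33.9 and 148 TPM in 16. It had 0.252 TPM in C57BL/6J, was listed at 0 in DBA/2J and had 69.3 TPM in BXD65. The pair shared a side in 96.4% of strains, and the 2 mice of 129X1/SvJ lay 5.87 apart for Sult3a1 and 2.78 apart for Sult3a2 on the log2 scale.

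Mup10 at chr4:60578260-60582199, one of the clustered genes for major urinary proteins, pheromone carriers made in liver, had 0, 13.9 and 148 TPM in 28 strains and 402, 3477 and 9472 TPM in 27. C57BL/6J had 289, DBA/2J 11089 and BXD65 4.38 TPM. C57BL/6J thus lay inside the gap, under every high-side strain. It was placed on the high side because it was above the midpoint of the gap on the log2 scale. Mup19 at chr4:61778324-61782269 had 0, 1.57 and 13.9 TPM in 41 strains and 37.4, 371 and 3661 TPM in 14, the highest being BXD19. Without BXD19 this high side falls under the 14 strains that the rule asks for. C57BL/6J had 8.69 and DBA/2J 9.54 TPM, and BXD65 was listed close to 0. In the diet study, 2 of the 14 C57BL/6J libraries other than 500 ppm replicate 2 lay on this low side of Mup19. The 3 mice on 2% iron there had 158, 195 and 229 TPM. Mup7 and Mup14 were low in the panel C57BL/6J mouse, and 1 and 3 of those 14 lay on the low side. For Mup10, 12 of the 14 lay on the high side. Mup genes are near-identical copies, so reads may have been divided among them.

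Hoxb1 at chr11:96365752-96368256, a homeobox transcription factor gene, had 0, 0.145 and 0.341 TPM in 41 strains and 1.84, 2.95 and 3.83 TPM in 14. C57BL/6J had 0.0888, DBA/2J 0.182 and BXD65 0.171 TPM. Tff3 at chr17:31125306-31129646, which encodes a secreted trefoil peptide, had 0, 1.47 and 2.96 TPM in 27 strains and 7.29, 38.6 and 305 TPM in 28. C57BL/6J had 9.68, DBA/2J 69.2 and BXD65 6.57 TPM.

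The other 10 members of this kind were pseudogenes, each with a near-identical expressed gene elsewhere. Low in both parents were Gm6395 (a copy of Dnajb6), Gm4332 (Rps20), Gm12396 (Psenen), Gm12481 (Serf2) and Rps12-ps9 (Rps12). Their high-side medians were 2.50, 3.19, 5.43, 11.4 and 52.6 TPM, all 5 had a low-side median under 0.1 TPM, and BXD65 was listed at 0 for the first 4 and had 39.4 TPM for Rps12-ps9. High in both parents were Gm12254 (Rpl24), Gm11847 (Hnrnpa3), Gm12350 (Chchd2), Rps15a-ps5 (Rps15a) and Gm4045 (Atp5l). Their high-side medians were 16.1, 1.66, 2.82, 21.9 and 7.58 TPM, and all 5 had a low-side median of 0. The diet study held 14 C57BL/6J libraries other than 500 ppm replicate 2. Of these, 5, 11, 8, 7 and 3 lay on the high side of these 5 members, in the order given. For the 5 members low in both parents, 10, 7, 11, 12 and 9 of the 14 lay on the low side. The 16 members under 10 counts with both parents on 1 side were all listed at 0 on the low side.

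Copies of expressed genes made up most of the list. A relative was defined as the expressed protein-coding gene with the best alignment of at least 90% identity over at least 80% of the member's transcript. Other members could not serve as relatives, so a member without a relative may still resemble another member. For 72 of the 105 members it lay on another chromosome or over 10 Mb away, for 11 within 10 Mb, and for 22 there was none. The 72 comprised 67 pseudogenes and 5 protein-coding members, with a median identity of 99.1% and 59 different relatives. Ribosomal proteins of the Rps and Rpl series were the relatives of 30, with 21 different genes. Of the 72, 56 were high in DBA/2J and low in C57BL/6J, 6 were the reverse, and 10 had both parents on 1 side.

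The level of the relative, which the rule did not use, was lower in the strains where the member was high for 59 of 72. It was lower by more than 0.5 on the log2 scale for 22 and higher by more than 0.5 for 1. The median difference, high side minus low side, was -0.26 for the relative and 0.03 for the sum of member and relative. That sum differed by less than 0.25 between sides for 45 of 72. Other copies of the same relative were not in the sum. The 72 are not separate observations, because some share a relative and the same sets of strains. The count of lower relatives was not set beside one for unrelated genes. TPM is a share of each library, and reads shared between copies can move from the one value to the other.

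Rps18 had 367, 487 and 668 TPM (lowest, median, highest) in the 25 strains where Gm10260 was low and 64.6, 118 and 204 TPM in the 30 where it was high. C57BL/6J had 389 and DBA/2J 86.0 TPM of Rps18. The 2 sets of strains did not overlap for either gene. The sum of Gm10260 and Rps18 had a median of 488.6 TPM on the low side and 297 on the high side. This sum leaves out Gm11361, the other copy of Rps18 described above, which was high in the same strains as Gm10260. The difference between the sides is therefore not that of all Rps18 copies.

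Rpl34-ps1 had 0, 0 and 2.45 TPM in 32 strains and 96.5, 187 and 239 TPM in 23, and was listed at 0 in C57BL/6J and at 176 TPM in DBA/2J. Rpl34 had 199, 254 and 378.3 TPM in the first set and 79.6, 103.5 and 139 TPM in the second. The lowest Rpl34-ps1 value and the highest Rpl34 value of the high side were both BXD19. C57BL/6J had 208 TPM of Rpl34 and DBA/2J 83.4 TPM.

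Gm15459 had at most 2.45 TPM in 20 strains and 88.1, 208 and 335 TPM in 35, of which BXD19 was the lowest. C57BL/6J was listed at 0, DBA/2J had 131 and BXD65 199 TPM. Hspa8 had 520.97, 644 and 956 TPM where Gm15459 was low and 182, 306 and 524 TPM where it was high. Those ranges overlapped only between the lowest value of the first set and the highest of the second. Gm37009, a processed pseudogene at chr3:65506277-65506637 that resembles the ribosomal protein gene Rps2, had at most 4.06 TPM in 28 strains and 135, 195.9 and 279 TPM in 27. C57BL/6J was listed at 0, and DBA/2J had 158 TPM. Rps2 had medians of 634 and 515 TPM in the 2 sets, and these overlapped widely, from 504 to 784 and from 367 to 788 TPM.

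Gapdh had 3 copies among the members. Gm13394 had 0, 1.47 and 6.86 TPM in 28 strains and 373, 743 and 1284 TPM in 27, the lowest being BXD19. C57BL/6J had 5.38, DBA/2J 526.995 and BXD65 2.79 TPM. Gapdh had a median of 1545 TPM where Gm13394 was low and 1650 TPM where it was high, and the ranges overlapped. The sum of both had medians of 1546 and 2438 TPM. Gm12070 split in the other direction, with at most 0.207 TPM in 26 strains and 1.84, 6.67 and 18.7 TPM in 29. C57BL/6J had 4.42 TPM of it, DBA/2J was listed at 0 and BXD65 had 7.21 TPM. The sides of Gm13394 and Gm12070 were opposite in 54 of 55 strains. The exception was BXD19, with 373 TPM of Gm13394 and 3.45 TPM of Gm12070, so on the high side of both. Both copies lie on other chromosomes than Gapdh and each other. The remaining copy, Gm5345 at chr8:40853828-40855027, had an identity of 90.7% with Gapdh. It had at most 0.294 TPM in 29 strains and 3.27, 4.78 and 7.20 TPM in 26, with 3.95 TPM in C57BL/6J, 0 in DBA/2J and 5.30 in BXD65. Gapdh had medians of 1635 and 1690 TPM (low side, high side of Gm5345).

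**Figure D4:**
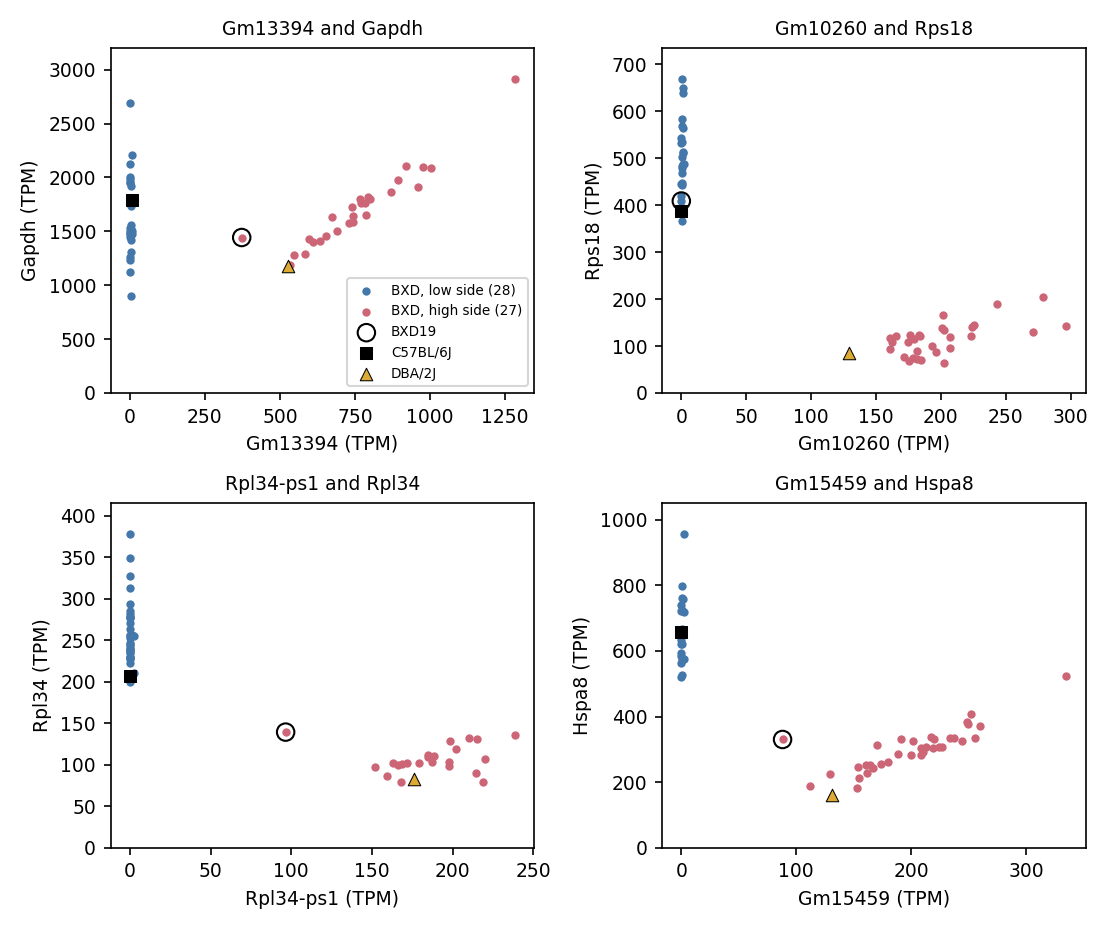
TPM of 4 members (x axes) and of the expressed gene each resembles most (y axes) in 55 BXD strains, coloured by the member's side, with C57BL/6J as a square, DBA/2J as a triangle and BXD19 ringed. Rps18, Rpl34 and Hspa8 are lower where the member is high, with medians of 118, 103.5 and 306 against 487, 254 and 644 TPM, while Gapdh has medians of 1650 and 1545 TPM.

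For each member, the most similar other gene was found by Pearson's r of log2(TPM + 1) over the 55 strains. The candidates were 11156 expressed protein-coding genes, less those that align with the member. Members and the genes left out by name were not candidates, so a neighbour that is itself a member could not be found. These r are descriptions: the strains share parental chromosome segments, so neighbouring genes are not independent. A window of 10 Mb to each side of a member held a median of 0.775% of the candidates. Of the 72 members with a relative elsewhere, the most similar gene lay within 10 Mb of the relative for 54, within 10 Mb of the member for 1, and near neither for 17. The exception at the member was Gm5345, most like Mtmr7 (r = -0.80) at 0.303 Mb on chromosome 8, with a largest absolute r of 0.307 near Gapdh. Among the 56 of these that were high in DBA/2J, it lay at the relative for 51 and at the member for 0. Without BXD19, the count at the relative was 53 of 72. The largest absolute r was greater at the relative than at the member for 67 of 72, with medians of 0.711 and 0.370. The windows at the relatives held more candidates, a median of 124.5 genes against 75.5.

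**Figure D5:**
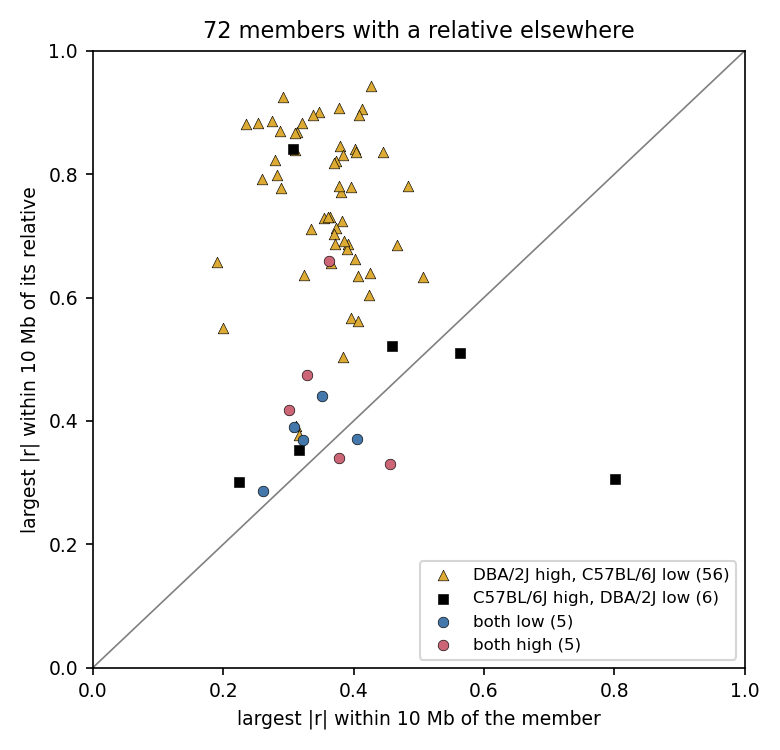
For 72 members with a relative elsewhere in the genome, the largest absolute Pearson r over 55 strains with a gene within 10 Mb of the member (x axis) and within 10 Mb of its relative (y axis), with symbols by the parents' sides. All but 5 points lie above the line of equal r, with medians of 0.711 at the relative and 0.370 at the member.

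Named examples show the distances. Gm10260 on chromosome 13 was most like H2-K1 (r = -0.94), which lies 0.0440 Mb from Rps18 on chromosome 17, and its largest absolute r near its own position was 0.427. Gm13394 was most like Pianp (r = 0.87), 0.165 Mb from Gapdh, against 0.310 near itself. Gm37009 was most like Abca3 (r = 0.88), 0.366 Mb from Rps2, against 0.236. Eno1b was most like Gpr157 (r = -0.79), 0.149 Mb from Eno1 on chromosome 4, against 0.259. Rpl34-ps1 with Ube2d3 (r = -0.66) and Gm15459 with Bco2 (r = -0.69) followed genes 4.71 and 9.73 Mb from their relatives. Hmga1b was most like H2-Q6 (r = 0.78), 7.87 Mb from Hmga1 on chromosome 17. Gm11361 was also most like H2-Q6 (r = 0.90), 1.47 Mb from Rps18.

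For members without a relative, the most similar gene was often a neighbour: it lay within 10 Mb of the member for 12 of 22. Ifi202b was most like Ifi213 (r = -0.78) at 0.396 Mb, and Serpina3c was most like Serpina11 (r = 0.86) at 0.166 Mb. Of the members with a relative nearby, C1rb was most like Pianp (r = 0.85) at 0.426 Mb, Ugt1a9 was most like Usp40 (r = -0.69) at 0.126 Mb, and Cyp2c39 was most like Slk (r = 0.69) at 8.07 Mb. H2-Q2 (r = -0.95) and Gm8909 (r = -0.95) were most like Rps18, at 1.39 and 2.21 Mb.

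Of the members low or high in both parents, Tff3 was most like Gfer (r = 0.68) at 6.43 Mb on its own chromosome. The rest of the named ones were most like genes on other chromosomes: Sult3a1 (r = -0.66) and Sult3a2 (r = -0.59) were most like Cyp2d9, a male-predominant cytochrome P450, Mup10 was most like the carboxylesterase gene Ces3a (r = 0.86), Mup19 most like A630089N07Rik (r = 0.57), and Hoxb1 most like Dusp23 (r = 0.79). For the 22 members under 10 counts the most similar gene lay near the member for 0 and near a relative for 1. Gm20538, which is in this class, was most like Wfdc2 (r = 0.48). Hist1h2aa, which is not in it, was most like Mansc1 (r = 0.70). Both of these similar genes lie on other chromosomes than the member.

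Some members on different chromosomes shared their sets of strains, and in each such pair a relative lay near the other member or its relative. For pairs on different chromosomes with no such closeness, the larger share of strains on the same or the opposite side had a median of 54.5% over 5026 pairs, and 0 pairs reached 95%. For 140 pairs in which a relative of the one lay within 10 Mb of the other member or of its relative, the median was 85.5% and 34 pairs reached 95%. For 62 pairs whose own positions lay within 10 Mb, the median was 64.5% and 18 pairs reached 95%. Groups joined at 95% numbered 15 and held 41 members. The largest held 8: Gm10260 and Gm11361 on chromosome 13 with H2-Q2, H2-K2, H2-Ea-ps, Gm11127, Gm8909 and Gm10499 on chromosome 17, where Rps18 lies. C1rb on chromosome 6 shared all 55 strains with Gm13394 on chromosome 2. The copies of Rplp0 on 3 chromosomes, Gm8730, Gm9625 and Rplp0-ps1, formed another group. The pairs Gm8210 with Gm13841 and Gm10240 with Gm13370 had identical values in all 55 strains, so each pair carries 1 measurement.

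The AXB/BXA strains, from A/J and C57BL/6J, share a parent with the BXD strains and were not used by the rule. With the same gap of 1 and at least 5 of 20 strains on each side, 81 of 127 members split, against 1.36% of the 15846 genes. Among the 105 members with at least 10 counts, 68 split. Of 77 members with at least 10 counts that were high in DBA/2J, 51 split, and A/J lay on the DBA/2J side for 46 of those. Of the 26 that did not split, A/J lay on the DBA/2J side for 2. Gm10260 split into 12 and 8 AXB/BXA strains, from 0 to 242 TPM, with 220 TPM in A/J. Cyp2c39 split into 13 and 7 strains, from 1.14 to 538 TPM, with 662 TPM in A/J. Serpina3c stayed between 1.59 and 5.44 TPM in all 20 strains, with 3.77 TPM in A/J, and Rpl34-ps1 between 0 and 1.80 TPM, with A/J listed at 0. Of the 12 members with at least 10 counts that were high in C57BL/6J, 8 split, with A/J on the DBA/2J side for 6. Among 29 other inbred strains, a DBA/2J-high member was on the high side in a median of 20 strains and a C57BL/6J-high member in a median of 8.5.

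C57BL/6J-high members included Mug2, Trim12a, Pttg1 and Gm14403. Mug2, a murinoglobulin protease inhibitor of plasma, had a low-side median of 10.7 TPM in 23 strains and a high-side median of 197 TPM in 32. C57BL/6J had 156.4 and DBA/2J 8.40 TPM. Trim12a, a tripartite motif protein gene, had medians of 0.267 TPM in 24 strains and 7.75 TPM in 31, with 11.7 TPM in C57BL/6J and 0.0660 TPM in DBA/2J. Pttg1, which encodes securin of the cell cycle, had medians of 3.51 TPM in 30 strains and 23.03 TPM in 25, with 22.1 TPM in C57BL/6J and 3.16 TPM in DBA/2J. Corin, a serine protease gene, went the other way, with 0.275 TPM in C57BL/6J and 5.14 TPM in DBA/2J.

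The diet-study mice gave further values for the C57BL/6J genotype, in a table made separately from the panel. Of 103 members with at least 10 counts in both tables, all 15 mice lay on the side of the panel C57BL/6J mouse for 51. Without the library labelled 500 ppm replicate 2, all 14 others did so for 80, and 23 members were mixed. The mixed members included most of the 19 that were high in the panel C57BL/6J mouse. Fewest of the 14 lay on that mouse's side for Mup7 and Rpl19-ps11 (1 each), Mup19 (2), and Mup14 and Gm4045 (3 each). Gm13394 had 0 to 7.26 TPM in those 14 mice and 377 TPM in the library labelled 500 ppm replicate 2, beside 373 TPM in BXD19. Serpina3c had 2.03 to 4.68 TPM in the 14 and 87.7 TPM in that library. Pttg1 had 19.7 to 29.3 TPM and Trim12a 4.22 to 16.5 TPM in the 14, all on the side of the panel C57BL/6J mouse. Over 103 members the pooled SD within diet groups had a median of 0.54 on the log2(TPM + 1) scale, the library labelled 500 ppm replicate 2 included. For the 19 of these that were high in the panel C57BL/6J mouse, the median SD was 0.96, beside a median gap of 1.28.

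The diet study also shows which members differ between diets within 1 strain. Of 124 members in that table, 42 passed the filter on low counts. In mice on 2% iron against 50 ppm, 7 of these 42 were called at an adjusted p under 0.05 by edgeR's quasi-likelihood test, 2 higher and 5 lower, against 15.7% of the 13560 genes tested. Against chow, 9 of 42 were called, 3 higher and 6 lower, against 22.8% of genes. These shares of members, 16.7% and 21.4%, are near those of all genes. The contrasts share the 2% mice. The library labelled 500 ppm replicate 2 enters through the common estimate of spread and through the filter on low counts. That filter passed 42 members with the library and 48 without it, so the shares with and without it rest on different members. Without it, 11 of 48 members tested (22.9%) were called against 50 ppm, beside 16.9% of 13821 genes. The same fit called 10 of 48 (20.8%) against chow, beside 24% of genes. Against 50 ppm the members' share was then farther above that of all genes than the 16.7% of members with the library included, and the difference between the shares was not tested.

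The 4 Mup members tested were all lower on 2% iron in both contrasts. Mup19 had 158, 195 and 229 TPM in the 3 mice on 2% iron, 9177, 5754 and 5749 TPM on 50 ppm, and 5270, 5711 and 3900 TPM on chow. The log2 change was -5.24 ± 0.45 (SE) against 50 ppm and -4.82 ± 0.44 against chow, with edgeR adjusted p of 7.9e-05 and 3.3e-05. The groups did not overlap. Mup7 had 17.4, 19.4 and 23.2 TPM on 2% iron, 11982, 1229 and 1060 TPM on 50 ppm, and 12425, 11843 and 7300 TPM on chow, with log2 changes of -8.29 and -9.42. Mup14 had log2 changes of -6.62 and -7.61, and Mup10 of -2.53 and -3.24. The mouse labelled 50 ppm replicate 1 was far above the other 2 of its diet for Mup7 and Mup14. Without it the changes against 50 ppm were -6.04 for Mup7 and -5.10 for Mup14. Each of these mice carries the same strain label.

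Trim12a was higher on 2% iron, at 10.99, 16.5 and 12.6 TPM, than on 50 ppm, at 5.36, 6.00 and 4.59 TPM (log2 change 0.86 ± 0.17, edgeR adjusted p = 0.0056). Against chow, at 9.07, 6.22 and 9.09 TPM, its log2 change was 0.53 (edgeR adjusted p = 0.038). H2-Q2 was lower against 50 ppm (log2 change -1.27, edgeR adjusted p = 0.037), at 0.571, 0.816 and 0.518 TPM against 1.81, 1.44 and 1.34 TPM. This call was lost when any 1 of the 6 compared mice was left out, at edgeR adjusted p of 0.051 to 0.16, and with DESeq2 at an adjusted p of 0.064. Rps2-ps10 was higher against 50 ppm (0.97, edgeR adjusted p = 0.044), and lost its call with 5 of the 6 mice left out in turn. Against chow, Gm14403 (-1.02) and Mug2 (-0.79) were lower and Gm8430 (6.89) and Tff3 (1.68) were higher, with edgeR adjusted p of 0.022, 0.024, 0.032 and 0.046. Each of these 4, and Trim12a against chow, lost its call without at least 1 of the compared mice, and Gm8430 without any 1 of the 6. Tff3 also lost its call without the library labelled 500 ppm replicate 2, at an edgeR adjusted p of 0.051.

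Sult3a1 and Cyp2c39 were not called with that library in the fit and were called when it was left out. Sult3a1 had 1.49, 0.992 and 1.64 TPM on 2% iron against 0, 0.113 and 0.101 TPM on 50 ppm and 0, 0.0939 and 0 TPM on chow. Without that library its log2 changes were 4.11 and 4.98, with edgeR adjusted p of 0.0073 and 0.0028, and with it the adjusted p were 0.12 and 0.071. Cyp2c39 had 4.99, 5.16 and 5.43 TPM on 2% iron against 1.29, 3.34 and 2.25 TPM on 50 ppm and 2.09, 2.60 and 1.55 TPM on chow. Its log2 changes without the library were 1.14 and 1.19, with edgeR adjusted p of 0.027 and 0.016, and with it the adjusted p were 0.53 and 0.48. Both genes were also called in both contrasts when only the 2 compared diets were fitted, and Sult3a1 also with DESeq2. All these levels stayed on the low side of the BXD gap. Mug2 (-0.62) and Gm6395 (6.89) were likewise called against 50 ppm without that library, with edgeR adjusted p of 0.026 and 0.027, and with DESeq2 also when it was included.

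Near the threshold of the rule, the 19 members with a gap under 1.1 ran from Gm44075 (1.01) to Gm38038 (1.09) and included Mup7, Gm11127, Hoxb1 and Tff3. The 24 genes with a gap from 0.9 to 1 ran from Rpl36-ps2 (0.90) to Gm15620 (0.99) and included Sae1, Sult2a2 and Mup9.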

How the data were processed

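Liver mRNA libraries of 130 mice, all labelled male and made with a strand-specific kit per the labels, were analysed from 2 pairs of gene tables. Per the submitters' processing notes, kallisto 0.46 and the mm10 build were used. The deposited expected counts (estimated counts per gene) carry no normalization, and the deposited TPM values were scaled by the authors per library. The panel tables name Ensembl release 97. The aligner settings and the use of strand in counting are not given in the sources used here. Totals ran from 9.41 M to 20.6 M (mega) counts in the BXD libraries, and members under 10 counts have little precision.

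Gaps were computed on log2(TPM + 1). Symbols, positions and transcripts came from GENCODE M21 (GRCm38), which matched 35691 of 35711 panel identifiers, and relatives from BLAST+ 2.17.0. The members and lists were chosen with earlier results of these data known. Named members are the 12 protein-coding ones with the widest gap, those on the iron and drug metabolism lists, those with both parents on 1 side and called members. Pseudogenes shown with sequence, Mug2, Pttg1 and Corin were chosen after their values were seen. The lists of members, lymphocyte, hepatocyte and erythroid genes, and of iron and drug metabolism genes, are described by counts and levels.

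Diet contrasts used edgeR 4.0.16 (TMM, filterByExpr, quasi-likelihood, Benjamini-Hochberg over all genes tested) on expected counts rounded to whole numbers, since the design had assumed counts. All 5 diet groups were fitted together. Each SE was back-calculated as the absolute log2 change divided by the square root of the quasi-likelihood F statistic. Alternatives used limma 3.58.1, DESeq2 1.42.0 and R 4.3.3. Gap and edgeR steps were tested on simulated data. The labels do not say whether mice shared litters or batches. Python 3.11.15 was used.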

Additional observations from a re-analysis of the deposited data

Results flagged for a closer look

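The library labelled 500 ppm replicate 2 of the diet study entered neither diet contrast as a compared group, and it carried a signal that the other C57BL/6J libraries lacked: 32 of 75 DBA/2J-high members lay on the high side, against 0 to 3 in the other 14 diet-study libraries and 0 in the panel C57BL/6J mouse. Its sides matched those of BXD19 for 97.1% of 103 members and those of the next BXD strain for 73.8%. The source of these counts was not tested.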

How the results depend on the processing

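The number of members depended most on the scale. It was 127 as reported, 1442 with a pseudocount of 0.1, 262 with 0.5, 76 with a gap of 1.5 and 198 with a gap of 0.75, and it stayed within 1.5 times under the other alternatives run, with 98 on log2(CPM + 1), of which 79 were members. Members higher in C57BL/6J by more than 1 numbered 17, and 11 on log2(CPM + 1). Other counts over parents, AXB/BXA strains, relatives and similar genes stayed within 1.5 times. All genes called by limma on log2(TPM + 1) numbered 1208 against 50 ppm and 1945 against chow, beside 2127 and 3087 with edgeR. With each compared mouse left out in turn, 1003 to 1640 and 2151 to 2627 genes were called, and 5 to 6 members in each contrast. Without the library labelled 500 ppm replicate 2, chosen after seeing the data, 11 members and 2333 genes in all were called against 50 ppm. Calls for Mup7, Mup10, Mup14 and Mup19 held in both contrasts under all 12 alternatives run on each contrast. Of these 12 alternatives, the call was lost in 8 for H2-Q2 and 6 for Rps2-ps10 against 50 ppm, and against chow in 7 for Tff3, 7 for Gm8430, 6 for Trim12a, 5 for Mug2 and 3 for Gm14403, with no change of direction; the cause was not tested. Depth limits the 22 members under 10 counts. No paired analysis was possible because the diet mice carry no number that the labels tie to a shared litter or batch.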
